A study of Mus musculus with 12 samples.

Results

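Deoxycholic acid (DCA) and chenodeoxycholic acid (CDCA) are dihydroxy bile acids that share 1 hydroxyl and carry the other at carbon 12 in DCA and at carbon 7 in CDCA. Their effects on RNA were compared directly in wild-type (WT) mouse organoids labelled Duodenum, which are cultures of gut epithelium that stem cells keep renewing. The comparison takes the 3 DCA libraries and the 3 CDCA libraries, 6 of the 12 libraries of the series, by their treatment labels. It is the only pair of compounds compared here. The comparison and the gene lists were chosen with earlier results of these data known. Counts over gene lists below therefore describe these data and are not independent support. Organoids given the solvent dimethyl sulfoxide (DMSO), 3 libraries, serve as a level to read the acids against. All groups, DMSO included, carry the same genotype and were kept in the same commercial organoid medium, and all were cultured for 2 days before the acids or solvent were added. Both acids are labelled with the same dose, 50 mmol/L, a value so high for a bile acid that its unit is in doubt, and their exposure is given both as 2 days and, in the protocol, as 96 hours. Expression values for 32587 gene rows were read as TPM, a transcript abundance scaled to a fixed library total. The unit was taken from the size and totals of the values. The test covered the 11952 rows that reached 1 TPM in 3 or more libraries. The labels do not say whether replicate libraries are separate cultures or mice, so a p-value here covers the spread among these samples alone, and that spread may be technical.

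Bile acids are made from cholesterol in the liver, dissolve dietary fat in the gut and act as signals. CDCA is a primary bile acid made by the liver, whereas DCA is a secondary bile acid, made from cholic acid by gut bacteria that remove a hydroxyl. Both can bind FXR, the nuclear receptor encoded by Nr1h4, which in enterocytes switches on the bile acid carrier Fabp6, the exporter pair Slc51a and Slc51b and the hormone Fgf15. The epithelium itself is renewed from stem cells in the crypts, whose daughters divide, leave the cell cycle and become absorptive enterocytes or secretory cells.

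The depth of the libraries is unknown, since TPM values keep none, and no counting interval can be given. Totals over the rows given were 932615 to 936841 TPM for DCA, 899896 to 917683 TPM for CDCA and 889156 to 920464 TPM for DMSO. CDCA replicate 3 stood apart from the other CDCA libraries. The root mean square difference in log2(TPM + 1) over the tested rows was 0.243 to 0.256 among DCA libraries and 0.27 between CDCA replicates 1 and 2, but 0.35 to 0.40 between CDCA replicate 3 and its group. CDCA replicate 3 was as near to the DCA libraries (0.36 to 0.40), whereas CDCA replicates 1 and 2 lay 0.50 to 0.60 from them. It was nearest to the cholic acid libraries of the series, at 0.280 to 0.318, nearer than to its own group. Whether its label is right was not tested, and every CDCA mean and every difference that includes this library rests on that label. Results below use all libraries, and values without CDCA replicate 3 are given for the main counts and for some of the gene lists and leading genes. Markers of mesenchymal, immune, endothelial, glial and neuronal cells were low in every library, with sums over 12 genes of at most 6.94 TPM for any of these 3 lists in DCA, CDCA or DMSO, and none of the 5 that could be tested differed between the acids. The duodenal regulator Gata4 was present at 98.9 to 105 TPM in DCA, 81.2 to 90.3 TPM in CDCA and 76.8 to 99.8 TPM in DMSO. Slc10a2, the bile acid importer of the ileum, did not exceed 0.822 TPM in any library.

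The acids differed widely. Of the 11952 rows, 3322 (27.8%) passed an adjusted p of 0.05 in the limma fit, 1532 (12.8%) higher with DCA and 1790 (15.0%) lower with DCA. Counts over gene lists below are to be read against these shares. The 3 DCA values and the 3 CDCA values did not overlap in 5784 rows (48.4%). By at least 1 log2 unit, 246 rows (2.06%) were higher and 156 (1.31%) lower with DCA. Without CDCA replicate 3 the counts were 1666 higher (13.9%) and 2277 lower (19.1%), and 3168 of the rows called with all libraries were called in the same direction. The total was 2192 without DCA replicate 1, 2102 without DCA replicate 2, 2026 without CDCA replicate 1 and 2022 without CDCA replicate 2. The call held in all 6 fits that left out 1 of the DCA or CDCA libraries for 1732 rows, 888 higher and 844 lower. Mitochondrial transcripts took 11.8% ± 0.814 of the TPM in DCA libraries, 15.9% ± 2.02 in CDCA libraries and 17.2% ± 2.74 in DMSO libraries (SD, n = 3 each). The DCA and CDCA ranges did not overlap, and the exact two-sided permutation p was 0.1, the smallest that 3 against 3 allows. After rescaling without mitochondrial and rRNA rows, 1306 rows were higher and 3313 lower, so that 28.3% of calls were higher with DCA against 46.1% as given. Small differences are therefore read with their value on that scale where it changes the direction of a list.

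The direct targets of FXR were higher with DCA. Of 10 listed targets 7 passed the filter on low values, and 5 of the 7 rose while 0 fell, with a median log2 fold change (DCA minus CDCA, of TPM + 1) of 1.06 against -0.05 over all rows. Fabp6, the cytosolic bile acid carrier of enterocytes, had 1481, 1653 and 1100 TPM in the DCA libraries, against 164, 197 and 755 TPM in the CDCA libraries and 1.30, 2.31 and 0.971 TPM in the DMSO libraries. All DCA libraries lay above all CDCA libraries and the CDCA libraries far above DMSO, with CDCA replicate 3 between its group and DCA. The difference was 2.26 log2 units (95% interval 1.02 to 3.49, adjusted p = 0.0145), and 2.94 without CDCA replicate 3 (adjusted p = 0.000211). It missed the threshold without DCA replicate 2 or CDCA replicate 2, at an adjusted p of up to 0.0571. The 250 bases before the Fabp6 start are shown for 2 stretches in them, in capitals. Each matches, with 2 mismatches, the inverted repeat that FXR is known to bind:

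Fabp6: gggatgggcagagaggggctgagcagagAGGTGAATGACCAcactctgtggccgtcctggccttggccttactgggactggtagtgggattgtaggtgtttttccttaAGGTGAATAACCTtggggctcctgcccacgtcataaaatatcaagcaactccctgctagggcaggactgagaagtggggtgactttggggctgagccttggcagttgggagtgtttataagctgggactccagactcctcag

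This is chr11:43601563-43601812 on the minus strand of GRCm38.p6, from the RefSeq promoter table, a build other than the one named for the expression files. The letters searched were AGGTCA, then 1 free base, then TGACCT, on both strands with up to 2 mismatches in the fixed letters, and the matches begin 222 and 142 bases before the start and do not overlap each other. Such a match was found in 315 of 32851 promoters (0.959%). Of the 9 listed FXR targets with a promoter in the table, 2 held a match, Fabp6 and Abcb11. Abcb11, a bile salt pump of the liver, was below the filter on low values here. No match was found in the windows of Slc51a, Slc51b, Nr0b2, Sdc1, Abcc2, Pltp or Abcb4.

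Among the other FXR targets the exporter subunits moved with Fabp6. Slc51b, the beta subunit of the basolateral bile acid exporter, had 149, 155 and 127 TPM with DCA, against 34.1, 35.7 and 93.2 TPM with CDCA and 4.11, 3.13 and 2.06 TPM with DMSO. It was 1.55 log2 units higher with DCA (interval 0.77 to 2.32, adjusted p = 0.00818), with no overlap between the groups, and 2.01 higher without CDCA replicate 3. Slc51a, the alpha subunit, had 57.9, 56.4 and 44.0 TPM with DCA, 9.09, 15.0 and 38.8 TPM with CDCA and 4.64, 2.09 and 1.71 TPM with DMSO. Its difference of 1.52 (adjusted p = 0.0273) kept its call only in the fit without CDCA replicate 3 among the 6 that leave out 1 library, with an adjusted p of up to 0.0898 in the others. Abcc2, an apical exporter of conjugated compounds whose row holds the same values as the row of Gm10768, was 1.06 higher (adjusted p = 0.000613), and Nr0b2, the repressor SHP, was 0.81 higher at 3.56 to 4.06 TPM with DCA and 1.25 to 2.48 TPM with CDCA (adjusted p = 0.0118, and 0.0604 without CDCA replicate 2). The list count was 3 without DCA replicate 2, 2 without CDCA replicate 2 and 6 without CDCA replicate 3.

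Fgf15, a gut hormone through which FXR limits the making of bile acids in liver, did not pass the test. It had 27.1, 24.7 and 29.9 TPM with DCA, 14.1, 14.1 and 34.7 TPM with CDCA and 1.88, 1.93 and 1.72 TPM with DMSO. The acids overlapped through CDCA replicate 3, which was the highest library of the 6, and both acids lay far above DMSO. The difference of 0.48 log2 units had an interval of -0.11 to 1.07 (adjusted p = 0.209), and it was 0.90 without CDCA replicate 3 (adjusted p = 0.000971). Sdc1, the proteoglycan syndecan 1, named after its values were seen, also did not pass, at -0.09 (interval -0.24 to 0.07), with 110 to 114 TPM with DCA and 114 to 129 TPM with CDCA.

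Of 12 listed receptors and partners 9 were tested, 5 rose with DCA and 0 fell. Nr1i3, the xenobiotic receptor CAR, had 65.5, 60.9 and 55.8 TPM with DCA, 18.4, 19.8 and 35.9 TPM with CDCA and 20.1, 18.9 and 17.4 TPM with DMSO, a difference of 1.32 (interval 0.90 to 1.75, adjusted p = 0.00102), or 1.62 without CDCA replicate 3. Nr1i2, the pregnane X receptor, was 0.50 higher and Rxra, the partner that these receptors share, 0.44 higher (adjusted p = 0.00377 and 0.00632). Nr1h4 itself had 35.4, 38.5 and 34.5 TPM with DCA, against 16.3, 19.9 and 31.5 TPM with CDCA and 25.9, 16.2 and 16.9 TPM with DMSO. The groups did not overlap, and the difference of 0.70 (adjusted p = 0.0292) kept its call only without CDCA replicate 3 among the fits that leave out 1 library (adjusted p up to 0.132). The count of 5 was 3 without DCA replicate 1 or 2 or CDCA replicate 1 or 2. The membrane bile acid receptor Gpbar1 did not exceed 0.0751 TPM in any library.

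Of 19 genes of bile acid transport and metabolism 12 were tested, 5 rose and 1 fell. Akr1b7, an aldo-keto reductase that acts on bile acid intermediates, had 37.1, 40.3 and 28.8 TPM with DCA, 6.10, 5.15 and 15.0 TPM with CDCA and 2.63, 2.01 and 1.55 TPM with DMSO. The groups did not overlap, and it was 2.02 log2 units higher with DCA (interval 1.33 to 2.71, adjusted p = 0.00134), or 2.45 without CDCA replicate 3. Hsd17b4, a peroxisomal enzyme of bile acid side chain shortening, was 0.64 higher (adjusted p = 0.00125) and Slc27a2, an acyl-CoA synthetase, 0.44 higher (adjusted p = 0.00449). Abcc4, a basolateral exporter, was the 1 that fell, by 0.93, with 1.07 to 1.50 TPM with DCA and 2.41 to 4.21 TPM with CDCA (adjusted p = 0.00911). The count of genes that rose was 3 without CDCA replicate 2. Akr1d1, the 5-beta-reductase of bile acid synthesis, had 0.0235 to 0.457 TPM with DCA, 0.347 to 0.779 TPM with CDCA and 2.05 to 3.66 TPM with DMSO, and its difference between the acids was -0.31 (interval -0.74 to 0.13, adjusted p = 0.282).

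The vitamin D receptor can be bound by bile acids, and its targets split. Of 10 listed genes of vitamin D and calcium absorption 5 were tested, and 4 rose. S100g, the calcium carrier calbindin-D9k of enterocytes, had 700, 687 and 657 TPM with DCA, 145, 140 and 333 TPM with CDCA and 149, 84.5 and 125 TPM with DMSO, a difference of 1.84 (interval 1.12 to 2.57, adjusted p = 0.00297), or 2.25 without CDCA replicate 3. Slc30a10, a manganese exporter, was 1.71 higher at 41.8 to 48.1 TPM with DCA and 10.7 to 18.9 TPM with CDCA (adjusted p = 0.000573). In contrast, Cyp24a1, the vitamin D 24-hydroxylase, had 5.83, 5.27 and 6.60 TPM with DCA and 5.59, 5.05 and 6.08 TPM with CDCA, and was listed at 0, 0 and 0.668 TPM with DMSO. The acids overlapped for it and differed by 0.07 log2 units (interval -0.33 to 0.47, adjusted p = 0.81), so a difference beyond 0.47 log2 units lies outside the interval. Vdr was 0.33 higher (adjusted p = 0.0325), with calls lost without DCA replicate 1 or 2 or CDCA replicate 1 or 2 (adjusted p up to 0.122).

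**Figure D1:**
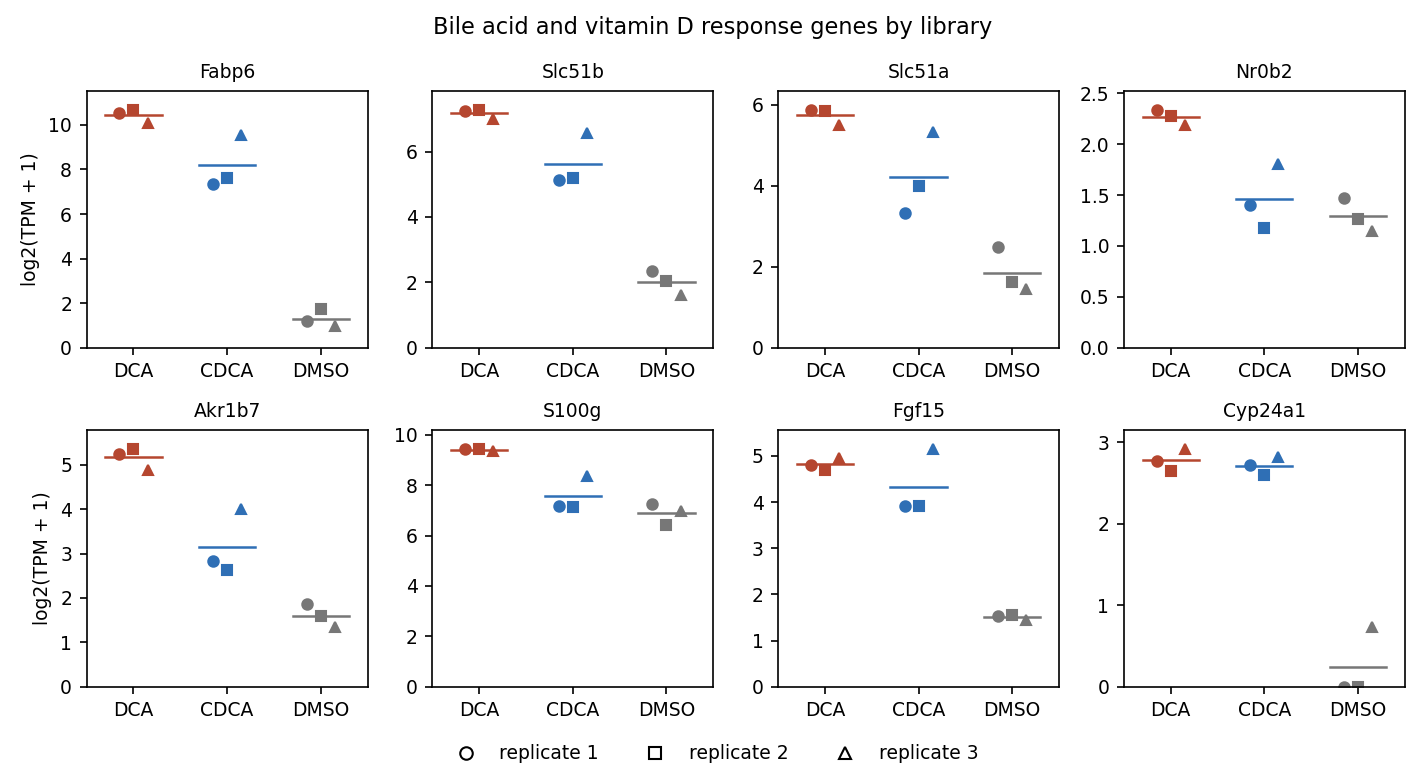
Log2(TPM + 1) of 8 genes of bile acid and vitamin D response in each DCA, CDCA and DMSO library, with the mean of each group as a line and the replicate number as the symbol. Fabp6, Slc51b, Slc51a, Nr0b2, Akr1b7 and S100g lie higher in every DCA library than in every CDCA library, CDCA replicate 3 is the CDCA library nearest to DCA for these genes, and Fgf15 and Cyp24a1 overlap between the acids.

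Genes of crypt stem cells were lower with DCA. All 20 listed stem cell markers were tested, 18 fell and 0 rose, with a median of -1.12 log2 units, and -1.41 without CDCA replicate 3, where 18 again fell. The count that fell was 15 without DCA replicate 1 and 13 without DCA replicate 2 or CDCA replicate 1 or 2. Olfm4, a secreted glycoprotein that marks crypt base cells, fell the most of the named genes, with 16.1, 14.2 and 17.7 TPM with DCA, 274, 245 and 77.5 TPM with CDCA and 161, 346 and 446 TPM with DMSO. No DCA library came near a CDCA or DMSO library, and it fell by 3.36 log2 units (interval -4.52 to -2.21, adjusted p = 0.00206), and by 3.94 without CDCA replicate 3. Lgr5, the receptor that defines these stem cells, had 27.5, 28.2 and 31.9 TPM with DCA, 75.3, 64.8 and 43.9 TPM with CDCA and 52.3, 67.6 and 84.1 TPM with DMSO. It fell by 1.01 (interval -1.46 to -0.57, adjusted p = 0.00381), while the CDCA range overlapped that of DMSO. Ascl2, a transcription factor of stem cell fate, fell by 1.99, Slc12a2, the sodium-potassium-chloride cotransporter of crypts, by 1.77, Sox9 by 1.29 and the adhesion receptor Cd44 by 1.43 (adjusted p = 0.00265, 0.000719, 0.00133 and 0.00183). The water channel Aqp4 and Prom1, the 2 members that did not pass and were named after their values were seen, had -0.16 and -0.03. In these bulk samples, fewer cells of a type and less RNA per cell cannot be told apart.

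Wnt signalling keeps crypt cells in the stem state and switches on its own feedback genes. Of 14 tested Wnt targets 10 fell and 2 rose with DCA, with a median of -0.61, or -0.74 without CDCA replicate 3 with the same counts. Axin2, Rnf43 and Znrf3 are also in the stem cell list and Ccnd1 in the list of G1 regulators, so these lists are not separate results. Axin2, a feedback inhibitor, had 5.71, 5.47 and 5.92 TPM with DCA, 42.6, 33.4 and 12.6 TPM with CDCA and 18.0, 31.6 and 47.8 TPM with DMSO, and fell by 2.03 (interval -2.96 to -1.10, adjusted p = 0.00558), and by 2.53 without CDCA replicate 3. The groups did not overlap. Myc fell by 1.00 and the cyclins Ccnd1 and Ccnd2 by 0.97 and 0.54 (adjusted p = 0.000613, 0.002 and 0.00153). The 2 that rose were Tcf7l2, a DNA-binding partner of beta-catenin, by 0.54 (adjusted p = 0.00188), and Notum, a secreted Wnt inhibitor named after its value was seen, by 0.72 at 1.48 to 2.77 TPM with DCA and 0.613 to 1.58 TPM with CDCA (adjusted p = 0.0256). Without DCA replicate 1 or 2 or CDCA replicate 1 or 2 only 1 of the list rose. The count that fell was 8 without any one of the DCA libraries or CDCA replicate 1. Of 14 tested genes of Notch signalling and secretory fate 5 fell and 0 rose, with 3 falling without DCA replicate 1 and 10 with the mitochondrial and rRNA rows left out. Lfng, a modifier of Notch receptors, fell by 1.28, Neurog3, the factor of enteroendocrine fate, fell by 1.07, and Sox4 fell by 1.04 (adjusted p = 0.00183, 0.00125 and 0.00468).

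The cell cycle lists moved as a block. All 28 S phase genes and all 25 mitosis genes fell with DCA, with medians of -1.04 and -0.81, and 28 and 24 fell without CDCA replicate 3. In the fits that left out 1 library, at least 25 S phase genes and at least 23 mitosis genes fell. Mcm7, a subunit of the replicative helicase, had 23.9, 24.2 and 23.7 TPM with DCA, 82.0, 63.3 and 48.5 TPM with CDCA and 57.5, 79.1 and 89.4 TPM with DMSO, and fell by 1.36 (interval -1.75 to -0.98, adjusted p = 0.00065). Summed over the list, S phase transcripts took 443 to 454 TPM in DCA libraries, 665 to 1051 TPM in CDCA libraries and 845 to 1217 TPM in DMSO libraries. Ube2c, which loads ubiquitin in mitotic exit, had 92.4, 90.9 and 88.9 TPM with DCA, 197, 181 and 162 TPM with CDCA and 167, 190 and 201 TPM with DMSO, and fell by 0.98 (adjusted p = 0.000167). Mki67, the marker of dividing cells, fell by 0.76 (interval -1.07 to -0.44, adjusted p = 0.00296), with 15.4 to 16.0 TPM with DCA, 21.6 to 32.3 TPM with CDCA and 23.9 to 34.6 TPM with DMSO. For Mki67 the DCA libraries lay close together and below every CDCA and DMSO library. Of 20 tested G1 regulators and p53 targets 5 rose and 5 fell, against 12.8% higher and 15.0% lower over all rows. However, 3 rose without DCA replicate 1 or 2 or CDCA replicate 1, 2 rose without CDCA replicate 2, and 3 fell without DCA replicate 1. Cdkn2b, an inhibitor of the G1 kinases, rose by 1.35 at 23.4 to 24.3 TPM with DCA, 6.66 to 14.4 TPM with CDCA and 5.32 to 10.9 TPM with DMSO (adjusted p = 0.00416), and the p53 target Phlda3 fell by 0.54 (adjusted p = 0.00231).

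**Figure D2:**
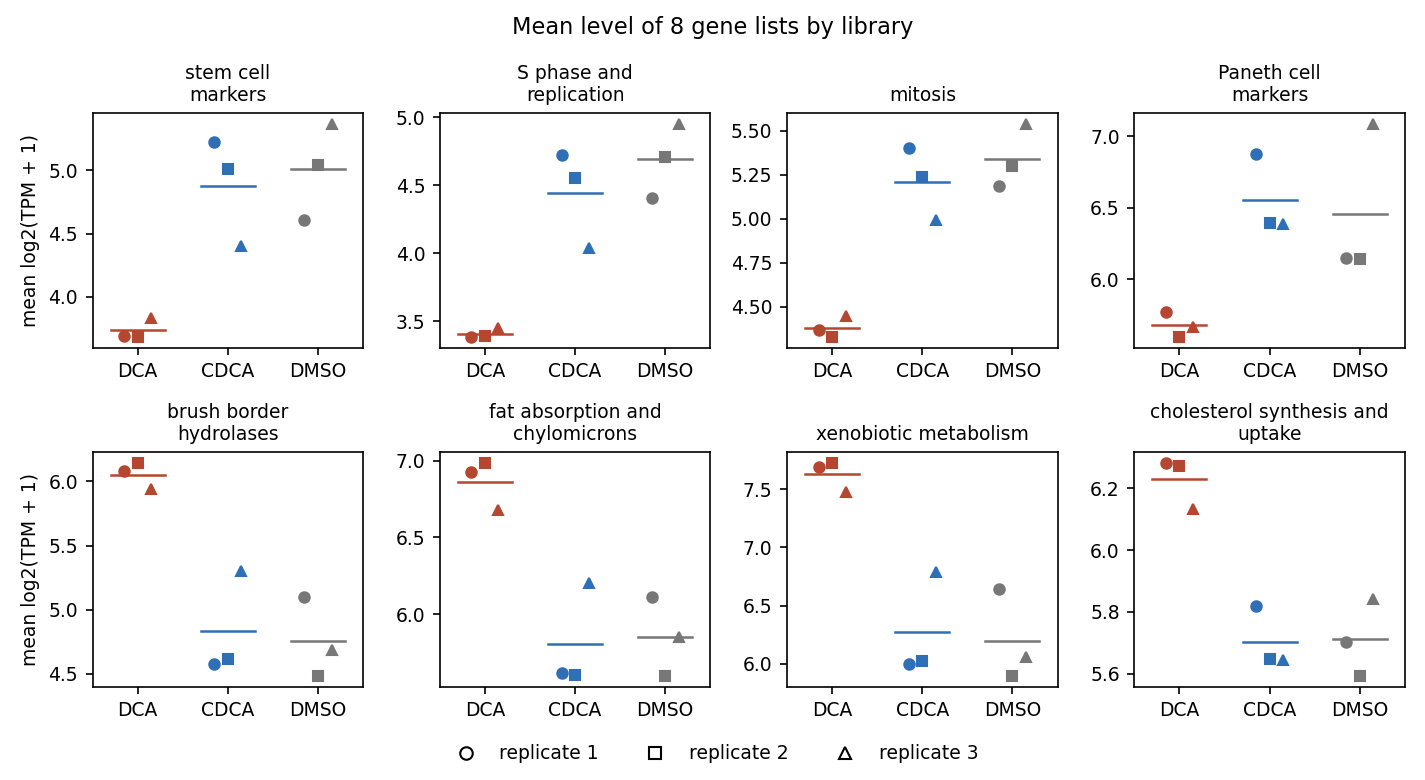
Mean log2(TPM + 1) over the tested members of 8 gene lists in each DCA, CDCA and DMSO library, with the group mean as a line. For stem cell, S phase, mitosis and Paneth lists every DCA library lies below every CDCA and DMSO library, for the other lists every DCA library lies above them, and CDCA replicate 3 is nearer to DCA than both other CDCA libraries by a clear margin in 6 of the 8 lists but not in the Paneth and cholesterol lists.

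Among secretory cells, Paneth cell products were lower with DCA and most hormone and mucus genes did not pass the test. Of 18 Paneth markers 16 were tested, 10 fell and 0 rose, with a median of -0.79, and 10 fell without CDCA replicate 3 with a median of -0.92. Mmp7, the protease that activates defensins, had 19.3, 20.3 and 24.6 TPM with DCA, 72.1, 47.5 and 40.1 TPM with CDCA and 51.0, 45.4 and 97.6 TPM with DMSO, and fell by 1.24 (interval -1.80 to -0.68, adjusted p = 0.00482). Ang4, an antimicrobial ribonuclease, fell by 1.07 (adjusted p = 0.0105), with 79.2 to 85.6 TPM with DCA and 149 to 236 TPM with CDCA. Lyz1, lysozyme, had 178, 172 and 164 TPM with DCA, 349, 248 and 233 TPM with CDCA and 337, 282 and 528 TPM with DMSO. The groups did not overlap, and its fall of 0.66 (adjusted p = 0.0233) lost its call without any of the DCA libraries or CDCA replicate 1 (adjusted p up to 0.103). The list count was 15 with the mitochondrial and rRNA rows left out, 5 without DCA replicate 2 or CDCA replicate 1 and 4 without DCA replicate 3. Defensin genes are near copies of each other, and reads shared between them could be divided among them.

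Of 26 tested enteroendocrine markers 6 fell and 2 rose, with a median of -0.12. A larger share fell and a smaller share rose than over all rows (15.0% lower and 12.8% higher). Cck, the hormone of fat sensing, had 573, 507 and 508 TPM with DCA, 895, 857 and 814 TPM with CDCA and 1167, 924 and 1282 TPM with DMSO, and fell by 0.69 (interval -0.91 to -0.47, adjusted p = 0.000943). The order DCA, CDCA, DMSO held without overlap. Tac1, the precursor of substance P, fell by 0.68 and Insm1, a factor of endocrine differentiation, by 0.50 (adjusted p = 0.00148 and 0.00545). Gcg, the precursor of the GLP hormones, instead had 144, 146 and 139 TPM with DCA and 139, 173 and 156 TPM with CDCA, against 343, 276 and 317 TPM with DMSO. Gip, the glucose-dependent insulinotropic peptide, had 203, 169 and 171 TPM with DCA and 202, 209 and 172 TPM with CDCA, against 369, 312 and 428 TPM with DMSO. The acids overlapped for Gcg and Gip and both lay below every DMSO library. The difference was -0.12 for Gcg (interval -0.35 to 0.11) and -0.10 for Gip (interval -0.39 to 0.19), and Chga, the granule protein chromogranin A, had -0.12 (interval -0.31 to 0.08). Sst, somatostatin, named after its values were seen, had -0.05 (interval -0.26 to 0.16), with 148 to 177 TPM with DCA, 156 to 174 TPM with CDCA and 214 to 273 TPM with DMSO. The 2 that rose, Pyy by 0.74 and Ghrl by 0.26, were likewise named after their values were seen and lost their calls in 4 of the 6 fits that leave out 1 library.

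Few goblet cell genes passed the test, at shares near or below those over all rows (15.0% lower and 12.8% higher). Of 18 tested, 2 fell and 1 rose, with a median of -0.13, and 8 fell with the mitochondrial and rRNA rows left out. On the values as given, 1 fell without DCA replicate 1 or 3 or CDCA replicate 1. Muc2, the main gel-forming mucin, had 29.1, 26.9 and 24.8 TPM with DCA, 27.1, 24.3 and 30.3 TPM with CDCA and 34.9, 29.5 and 39.1 TPM with DMSO, and its difference of -0.02 had an interval of -0.30 to 0.27, with no settled sign across settings. Clca1, a secreted goblet cell protease, fell by 0.78 at 2.34 to 2.74 TPM with DCA and 3.95 to 5.81 TPM with CDCA (adjusted p = 0.00442). Of 13 tested tuft cell markers 4 fell and 1 rose, against 15.0% lower and 12.8% higher over all rows. Without DCA replicate 1 or 2 or CDCA replicate 1 or 2, 2 fell. The largest, Krt18 and Cd24a, fell by 0.77 and 0.76 (adjusted p = 0.00098 and 0.00114), and both are also made by other epithelial cells. Il17rb, the receptor for interleukin 25, rose by 0.90 at 4.05 to 4.91 TPM with DCA and 1.40 to 2.71 TPM with CDCA (adjusted p = 0.00368).

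The genes of absorptive enterocytes were higher with DCA. Of 21 tested brush border genes 19 rose and 0 fell, with a median of 1.19, or 1.46 without CDCA replicate 3. Ggt1, gamma-glutamyltransferase, had 173, 208 and 130 TPM with DCA, 17.4, 22.3 and 44.4 TPM with CDCA and 28.4, 14.8 and 12.9 TPM with DMSO. It was the largest rise among the named genes, at 2.64 log2 units (interval 1.84 to 3.45, adjusted p = 0.00108), with no overlap, and 3.02 without CDCA replicate 3. Alpi, intestinal alkaline phosphatase, had 126, 143 and 108 TPM with DCA, 28.5, 25.8 and 52.2 TPM with CDCA and 48.0, 31.0 and 48.8 TPM with DMSO, and rose by 1.85 (interval 1.23 to 2.48, adjusted p = 0.00138). The peptidase Ace rose by 2.18, the metalloprotease Mep1a by 0.98 and Espn, an actin bundler of microvilli, by 0.82 (adjusted p = 0.00057, 0.00138 and 0.000573). The 2 members that did not pass, the peptidases Anpep and Xpnpep2, named after their values were seen, had -0.10 and 0.07. Krt20, the keratin of mature surface cells, rose by 1.29 (adjusted p = 0.00337), with 148 to 172 TPM with DCA, 49.9 to 101 TPM with CDCA and 34.6 to 55.9 TPM with DMSO. In the villus tip list 7 of 14 tested genes rose and 0 fell, but 5 rose without CDCA replicate 1 or 2.

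Most genes of nutrient uptake and of the assembly of fat were also higher with DCA. Of 20 tested nutrient transporters 12 rose and 1 fell, with a median of 0.66, and 14 rose and 1 fell without CDCA replicate 3. The count that rose was 10 without DCA replicate 1 or 2 or CDCA replicate 1 or 2. Slc7a9 and Slc3a1, the subunits of a cystine and basic amino acid transporter, rose by 1.56 and 0.80 (adjusted p = 0.00109 and 0.00134), and the folate transporter Slc46a1 by 0.78 (adjusted p = 0.00223). Slc29a1, a nucleoside transporter, fell by 0.94 at 25.5 to 30.9 TPM with DCA and 44.7 to 61.5 TPM with CDCA (adjusted p = 0.0011). All 22 genes of fat absorption and chylomicrons were tested, 21 rose and 1 fell, with a median of 1.02, or 1.18 without CDCA replicate 3 with the same counts. The count that rose was 19 without DCA replicate 2 and 18 without CDCA replicate 1 or 2. Fabp1, a fatty acid carrier, had 3969, 4129 and 2906 TPM with DCA, 961, 791 and 1156 TPM with CDCA and 1112, 667 and 1329 TPM with DMSO, and rose by 1.92 (interval 1.31 to 2.52, adjusted p = 0.00131). Every DCA library was above every other library of these groups, and CDCA overlapped DMSO. The apolipoprotein Apoc3 rose by 2.24, the cholesterol uptake protein Npc1l1 by 1.01 and Dgat1, which completes triglyceride synthesis, by 0.93 (adjusted p = 0.00669, 0.000986 and 0.000873). Clps, colipase, also listed as a Paneth marker, was the 1 that fell, by 0.97 (adjusted p = 0.00418).

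Genes of xenobiotic metabolism showed the most uniform rise. Of 36 listed, 35 were tested and all 35 rose, with a median of 1.34, or 1.54 without CDCA replicate 3. At least 32 rose in every fit that left out 1 library, the fewest without CDCA replicate 1 or 2. Gstm1, a glutathione transferase, had 1309, 1334 and 1145 TPM with DCA, 487, 437 and 484 TPM with CDCA and 445, 333 and 365 TPM with DMSO. The 3 CDCA libraries agreed closely, and Gstm1 rose by 1.42 (interval 1.18 to 1.67, adjusted p = 3.95e-05). Cyp3a11 and Cyp3a25, cytochrome P450 enzymes that hydroxylate drugs and bile acids, rose by 2.25 and 2.36. Cyp3a11 had 218, 250 and 177 TPM with DCA, 32.4, 34.1 and 76.6 TPM with CDCA and 89.1, 38.3 and 61.9 TPM with DMSO (adjusted p = 0.00221). The acids did not overlap, while CDCA replicates 1 and 2 lay below every DMSO library. The carboxylesterase Ces1f rose by 2.31 (adjusted p = 0.00567). Members of the Gstm, Cyp3a and Ces1 families are close in sequence, and how reads shared between them were divided is not given in the sources used here.

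Retinol enzymes and part of the antioxidant set moved in the same direction. Of 11 tested genes of retinol and carotenoid handling 10 rose and 0 fell, with a median of 1.04, or 1.21 without CDCA replicate 3 with the same counts. Aldh1a1, an enzyme of retinoic acid synthesis whose row holds the same values as E030003E18Rik, rose by 2.23 at 104 to 145 TPM with DCA, 17.9 to 49.2 TPM with CDCA and 23.4 to 52.1 TPM with DMSO (adjusted p = 0.00316). Bco2, a carotenoid oxygenase, rose by 1.63 (adjusted p = 0.00134). Of 18 NRF2 antioxidant genes 9 rose and 0 fell, with differences from -0.80 to 1.62. The count that rose was 6 without DCA replicate 1 and 7 without DCA replicate 2 or CDCA replicate 2. Without CDCA replicate 3 or under median-ratio scaling 1 fell, and 2 fell with the mitochondrial and rRNA rows left out. Me1, the cytosolic malic enzyme, had 34.3, 32.6 and 25.7 TPM with DCA, 9.21, 8.59 and 10.1 TPM with CDCA and 10.2, 7.96 and 8.06 TPM with DMSO, and rose by 1.62 (interval 1.31 to 1.93, adjusted p = 0.000111). Nqo1, the quinone reductase often used as the marker of this pathway, rose by 0.51 (adjusted p = 0.00345).

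Genes of cholesterol synthesis separated DCA from all 3 CDCA libraries. All 25 listed genes were tested, 21 rose and 0 fell, with a median of 0.48, and 20 rose without CDCA replicate 3 with a median of 0.43. The count that rose was 17 without DCA replicate 2 or CDCA replicate 2 and 16 without DCA replicate 1. Insig1, which holds the SREBP regulators in the endoplasmic reticulum and is itself one of their targets, had 297, 299 and 259 TPM with DCA, 127, 114 and 126 TPM with CDCA and 122, 100 and 109 TPM with DMSO. The CDCA libraries, replicate 3 included, lay close together and just above or within the DMSO range, and the difference was 1.21 (interval 1.02 to 1.40, adjusted p = 2.58e-05). Msmo1, a sterol demethylating oxidase, had 161, 161 and 149 TPM with DCA, 88.3, 78.3 and 81.5 TPM with CDCA and 97.4, 76.6 and 88.3 TPM with DMSO, and rose by 0.92 (adjusted p = 0.000167). Mvd, of the mevalonate pathway, rose by 0.85 (adjusted p = 0.000344). Hmgcs1, which makes the precursor of mevalonate, had 244, 240 and 207 TPM with DCA, 133, 124 and 133 TPM with CDCA and 144, 114 and 128 TPM with DMSO, and rose by 0.81 (interval 0.61 to 1.02, adjusted p = 0.000453). Its 250 bases before the start are shown for 1 stretch, in capitals. That stretch matches, with 1 mismatch, the sterol regulatory element to which SREBP proteins bind:

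Hmgcs1: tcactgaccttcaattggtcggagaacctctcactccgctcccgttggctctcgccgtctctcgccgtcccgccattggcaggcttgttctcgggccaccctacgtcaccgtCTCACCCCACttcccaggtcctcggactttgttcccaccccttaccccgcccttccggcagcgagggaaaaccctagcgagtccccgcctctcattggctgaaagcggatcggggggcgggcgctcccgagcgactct

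This is chr13:119690101-119690350 on the plus strand of GRCm38.p6, from the RefSeq promoter table. The letters searched were ATCACC followed directly by CCAC, on both strands with up to 1 mismatch, and the match begins 138 bases before the start. Of all promoters in the table, 542 of 32851 (1.65%) held a match, as did 3 of the 17 listed cholesterol genes found in it, Hmgcs1, Nsdhl and Srebf2. The windows of Insig1, Msmo1 and Mvd held none.

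Of the 14 tested genes of cholesterol export and LXR targets 5 rose and 0 fell. Scd1, a desaturase of fatty acids, had 441, 460 and 395 TPM with DCA, 227, 178 and 152 TPM with CDCA and 88.3, 76.4 and 88.8 TPM with DMSO, and rose by 1.23 (interval 0.96 to 1.50, adjusted p = 0.000228). The 3 groups did not overlap, with CDCA between DCA and DMSO. Lpcat3, which loads polyunsaturated chains into phospholipids, rose by 0.61 and Abcg8, a subunit of the apical sterol exporter, by 0.73 (adjusted p = 0.000585 and 0.00337). Abca1, the best known LXR target and named after its values were seen, had 0.23 (interval -0.05 to 0.51), with 1.05 to 1.26 TPM with DCA and 0.700 to 0.931 TPM with CDCA.

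The place of CDCA replicate 3 relative to the other CDCA libraries and DCA differed by list, in a measure chosen after the data were seen. For each of the 3943 rows called without that library, its log2 value was placed on a line from the mean of CDCA replicates 1 and 2 (at 0) to the DCA mean (at 1). The median place was 0.48 over all these rows, with quartiles of 0.33 and 0.64. It was 0.92 for 5 interferon and antigen presentation genes, whose places ranged from 0.41 to 2.94. Over all tested members of that list, CDCA replicate 3 lay above every DCA library and not between the groups. The median place was 0.70 for 6 FXR targets, 0.68 for 6 identity factors and 0.67 for 4 genes of the unfolded protein response. It was 0.53 for 35 xenobiotic genes, 0.52 for 18 stem cell markers, 0.49 for 19 brush border genes and 0.48 for 28 S phase genes. For 20 cholesterol synthesis genes it was -0.09, for 10 NRF2 genes 0.15 and for 18 glycolysis and hypoxia genes 0.17. The measure is a description of 1 library and carries no test.

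**Figure D3:**
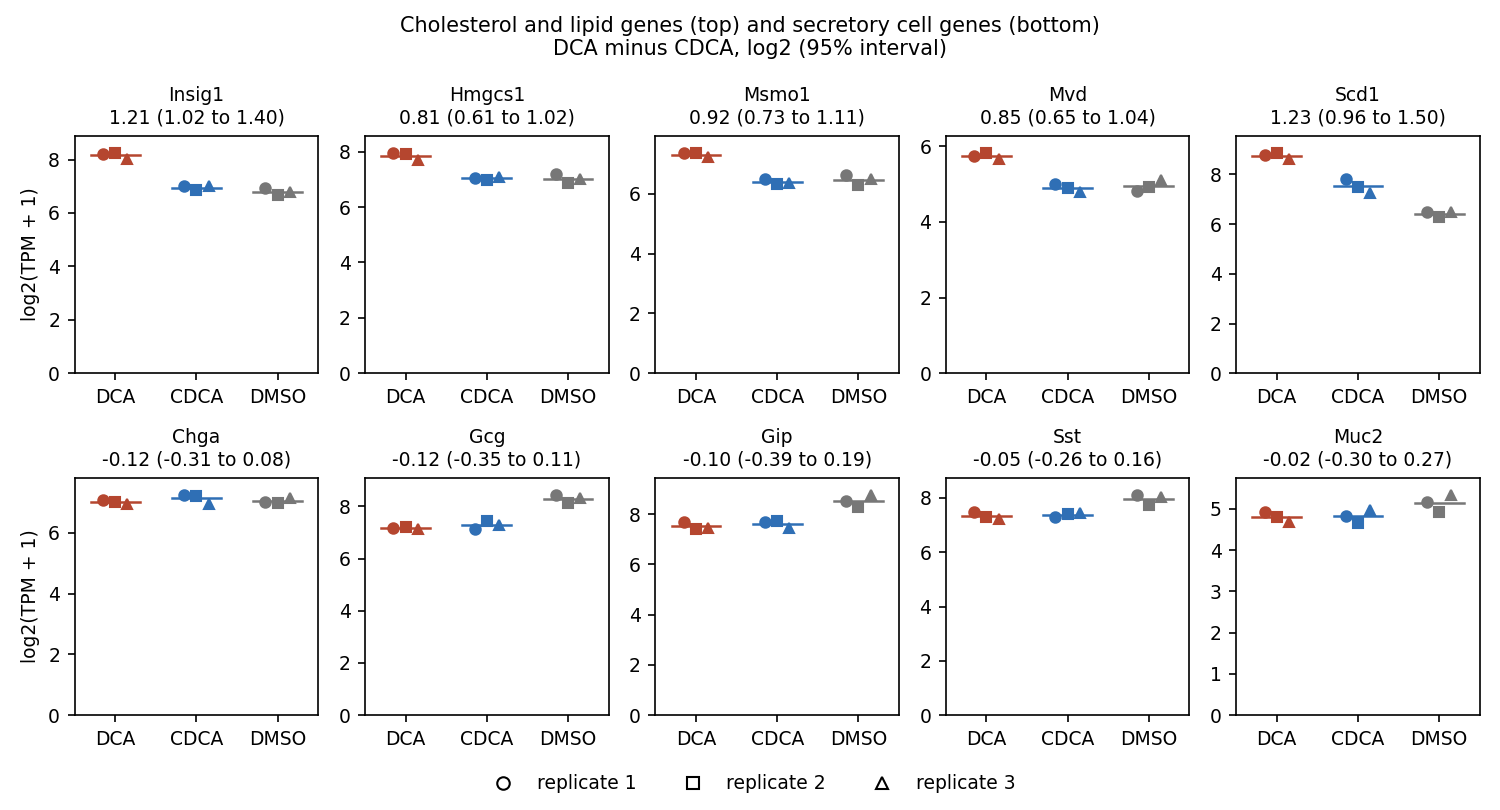
Log2(TPM + 1) by library for 4 cholesterol synthesis genes and the desaturase Scd1 (top) and 5 secretory cell genes (bottom), with the difference DCA minus CDCA and its 95% interval above each panel. All 3 CDCA libraries sit below all DCA libraries for Insig1, Hmgcs1, Msmo1, Mvd and Scd1, while Chga, Gcg, Gip, Sst and Muc2 overlap between the acids and Gcg, Gip and Sst are higher in every DMSO library.

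Genes of fuel metabolism were mostly higher with DCA. Of 26 tested genes of fatty acid oxidation and PPAR targets 22 rose and 0 fell, with a median of 0.64. Between 18 and 20 rose in the fits that left out 1 library. Acaa1b, a peroxisomal thiolase, had 65.9, 73.9 and 53.1 TPM with DCA, 11.7, 9.42 and 19.2 TPM with CDCA and 11.4, 7.20 and 14.4 TPM with DMSO, and rose by 2.22 (interval 1.60 to 2.85, adjusted p = 0.000693). Every DCA library lay above every CDCA and DMSO library. Hadh, a mitochondrial enzyme of fatty acid oxidation, rose by 0.70 at 401 to 436 TPM with DCA, 243 to 298 TPM with CDCA and 226 to 276 TPM with DMSO (adjusted p = 0.000765). Of 12 tested genes of gluconeogenesis and fructose breakdown 11 rose, led by G6pc, glucose-6-phosphatase, by 2.05, with 7.74 to 12.2 TPM with DCA, 1.14 to 2.73 TPM with CDCA and 1.24 to 2.95 TPM with DMSO (adjusted p = 0.000943). Pcx, pyruvate carboxylase, had 28.0, 30.5 and 24.4 TPM with DCA, 7.99, 10.9 and 13.8 TPM with CDCA and 3.73, 3.02 and 3.54 TPM with DMSO, and rose by 1.29 (adjusted p = 0.00134). The 3 groups did not overlap. The 1 that fell was Pck2, a mitochondrial PEP carboxykinase named after its values were seen, by 0.50 (adjusted p = 0.00293).

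Of 22 genes of glycolysis and the hypoxia response 18 rose and 1 fell, with a smaller median of 0.40. Gpi1, glucose-6-phosphate isomerase, rose by 0.69 and the hypoxia targets Car9 and Ndrg1 by 0.71 and 0.90 (adjusted p = 0.00044, 0.00044 and 0.000573). Car9, a carbonic anhydrase, had 420, 410 and 390 TPM with DCA, 247, 218 and 281 TPM with CDCA and 170, 171 and 175 TPM with DMSO, again with no overlap among the 3 groups. The gene that fell was the hexokinase Hk2, named after its values were seen, by 0.51 (adjusted p = 0.0137, and up to 0.0673 without DCA replicate 2 or CDCA replicate 1). Of 25 nuclear genes of oxidative phosphorylation 11 rose and 0 fell, but by no more than 0.32 log2 units, while 1 rose without DCA replicate 1 or 2 or CDCA replicate 2 and 6 without CDCA replicate 1. Differences this small moved with the scaling, with 18 higher under median-ratio scaling, and 8 higher with the mitochondrial and rRNA rows left out, where the median was 0.09 against 0.19. Of the 13 mitochondrially encoded genes 5 fell, or 3 without DCA replicate 1 or CDCA replicate 2, among them CYTB, a subunit of complex III, by 0.54, with 13204 to 15322 TPM with DCA, 17965 to 21687 TPM with CDCA and 17682 to 24132 TPM with DMSO (adjusted p = 0.00311).

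**Figure D4:**
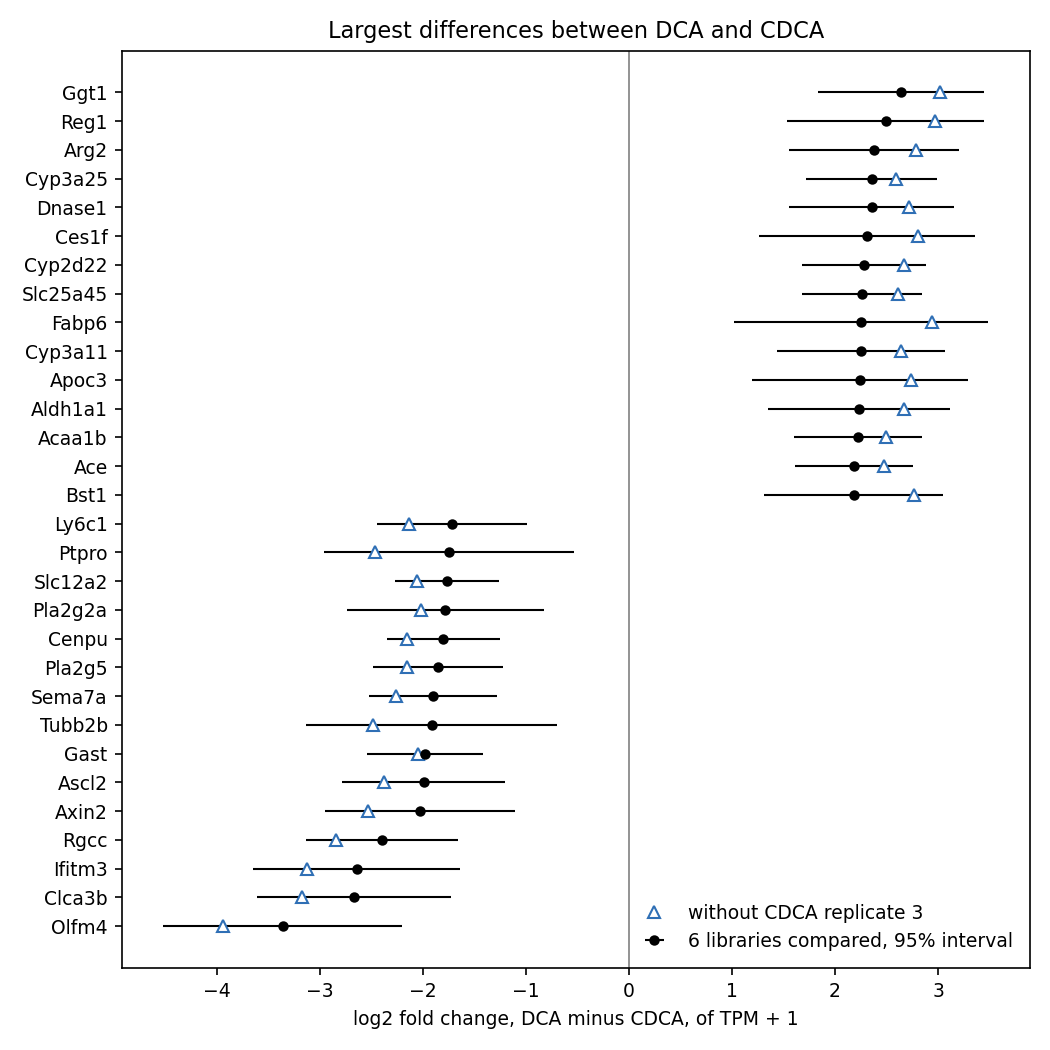
Log2 fold change (DCA minus CDCA, of TPM + 1) with its 95% interval for the 15 largest differences in each direction admitted by the naming rule, with the value without CDCA replicate 3 as an open triangle. Every one of the 30 genes has a larger difference without CDCA replicate 3, by the least for Gast (-1.98 with it and -2.05 without it).

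The 30 largest differences that the naming rule admits, which leaves out predicted genes, clones and pseudogenes, held genes of several of these groups. Rows outside the rule reached -6.09. The rises ran from 2.18 for Bst1, an ADP-ribosyl cyclase, to 2.64 for Ggt1, and the falls from 1.72 for Ly6c1 to 3.36 for Olfm4. Of the 30, 27 kept their call in all 6 fits that leave out 1 library, and Fabp6, Ptpro and Tubb2b did not. Reg1, a secreted lectin of the regenerating family, had 94.2, 114 and 81.8 TPM with DCA, 9.86, 13.1 and 32.5 TPM with CDCA and 178, 73.6 and 96.4 TPM with DMSO. DCA overlapped DMSO, CDCA lay below both, and the difference between the acids was 2.49 (interval 1.54 to 3.45, adjusted p = 0.00284), or 2.97 without CDCA replicate 3. Arg2, the mitochondrial arginase, rose by 2.38, with 160, 162 and 123 TPM with DCA, 19.2, 21.8 and 48.8 TPM with CDCA and 38.4, 17.4 and 16.5 TPM with DMSO (adjusted p = 0.00183). Dnase1, a secreted nuclease, rose by 2.35 and Slc25a45, a mitochondrial carrier, by 2.26 (adjusted p = 0.00138 and 0.000508). Clca3b fell by 2.67 and Ifitm3, a membrane protein that restricts viruses, by 2.64, with 9.30 to 10.4 TPM with DCA, 33.0 to 107 TPM with CDCA and 46.5 to 136 TPM with DMSO (adjusted p = 0.00203 and 0.00276). Rgcc, a regulator of the cell cycle, fell by 2.40 and Gast, the gastrin precursor, by 1.98 at 0 to 0.569 TPM with DCA and 2.76 to 6.26 TPM with CDCA (adjusted p = 0.00103 and 0.00065).

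Mucosal defence genes were mixed. Of 16 tested Reg lectins, galectins and defence genes 5 rose and 2 fell, against 12.8% higher and 15.0% lower over all rows. Without CDCA replicate 3, 9 rose, and 1 fell without any one of the other 5 libraries. Pigr, the receptor that carries antibody across the epithelium, had 1195, 1165 and 1052 TPM with DCA, 561, 548 and 794 TPM with CDCA and 559, 469 and 542 TPM with DMSO, and rose by 0.86 (interval 0.58 to 1.14, adjusted p = 0.00107). Lgals4, a galectin of the brush border, rose by 0.62 (adjusted p = 0.000943). Reg4, a lectin of secretory cells named after its values were seen, fell by 0.81 at 71.9 to 84.1 TPM with DCA, 116 to 175 TPM with CDCA and 166 to 270 TPM with DMSO (adjusted p = 0.00464). Of 18 tested interferon and antigen presentation genes 3 rose and 0 fell, with a median of -0.10, against 12.8% higher and 15.0% lower over all rows. The share that rose was near that over all rows. The count that rose was 1 without any one of the DCA libraries or CDCA replicates 1 and 2. It was 5 without CDCA replicate 3. The mean log2(TPM + 1) of the tested members was 4.59 in CDCA replicate 3, against 3.49 and 3.59 in the other CDCA libraries and 3.76 to 3.81 with DCA. H2-Ab1, a class II chain, rose by 0.71 at 7.16 to 8.39 TPM with DCA and 3.39 to 5.28 TPM with CDCA (adjusted p = 0.00438).

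Genes of ion and metal transport also differed. Of 15 tested genes of ion and fluid transport 9 rose and 4 fell, but 7 rose without DCA replicate 1 or 2 or CDCA replicate 1 or 2. The exchanger Slc26a6 rose by 1.22, whereas Slc12a2 and the potassium channel Kcnn4, which take part in chloride secretion, fell by 1.77 and 1.47 (adjusted p = 0.00305, 0.000719 and 0.00152). Of 16 genes of metal handling 12 rose and 0 fell, with a median of 0.56. The metallothioneins Mt1 and Mt2, which bind zinc, rose by 0.66 and 0.49 and the ferritin chain Fth1 by 0.51 (adjusted p = 0.00191, 0.00188 and 0.00111). Among 15 tested genes of arginine, the urea cycle and polyamines 5 rose and 4 fell, but 3 rose without DCA replicate 1 or CDCA replicate 1 or 2, and 2 fell without CDCA replicate 1. Oat, which makes ornithine into a precursor of proline, rose by 0.77, while Odc1, the first enzyme of polyamine synthesis, fell by 0.40 (adjusted p = 0.00229 and 0.00348).

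Stress programmes held called genes in both directions. Of 21 tested genes of the integrated stress response 6 fell and 2 rose, against 15.0% lower and 12.8% higher over all rows. The median was -0.05, and 0 rose without DCA replicate 1 or 2 or CDCA replicate 1 or 2. Slc7a5, an amino acid transporter, fell by 0.67 and Gdf15, a secreted stress factor, by 0.63, with 28.4, 33.3 and 31.0 TPM with DCA, 50.7, 47.6 and 46.1 TPM with CDCA and 45.5, 45.3 and 50.7 TPM with DMSO (adjusted p = 0.000693 and 0.000694). Over all tested members, however, both acids lay above DMSO. Their mean log2(TPM + 1) was 5.75 to 5.78 with DCA, 5.82 to 5.91 with CDCA and 5.49 to 5.56 with DMSO. Of 19 tested genes of the unfolded protein response 3 rose and 1 fell, against 12.8% higher and 15.0% lower over all rows. The share that rose was near that over all rows. Under median-ratio scaling 6 were higher, and with the mitochondrial and rRNA rows left out 0 were higher and 3 lower. Of this list 0 rose without DCA replicate 2 or CDCA replicate 1 or 2, and 1 rose without DCA replicate 1 or 3. Xbp1 had 0.32 (adjusted p = 0.0129, and up to 0.0664 without DCA replicate 2 or CDCA replicate 1 or 2). Of 17 tested heat shock genes 7 fell and 1 rose, 0 rose in any fit that left out 1 library, and 3 fell without DCA replicate 2 or CDCA replicate 1 or 2. Hsp90aa1, an inducible chaperone, fell by 0.62 at 134 to 138 TPM with DCA and 166 to 258 TPM with CDCA (adjusted p = 0.00501).

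Of 13 tested fetal-like and YAP response genes, known from repair of the intestine, 8 fell and 0 rose, with a median of -0.68. Ly6a fell by 1.47, with 13.2 ± 1.09 TPM with DCA, 39.6 ± 13.9 TPM with CDCA and 43.6 ± 14.8 TPM with DMSO (SD, n = 3 each; adjusted p = 0.00183 in the limma fit). Areg, a ligand of the EGF receptor, fell by 0.69 (adjusted p = 0.00173). Of 17 tight junction genes 3 fell and 1 rose, near the shares over all rows, while 6 fell with the mitochondrial and rRNA rows left out and 0 rose without DCA replicate 1 or 2 or CDCA replicate 1 or 2. The claudins Cldn4 and Cldn2 fell by 0.85 and 0.61 (adjusted p = 0.00345 and 0.00461), and Cldn2, the pore-forming claudin of crypts, had 91.5 to 95.6 TPM with DCA, 117 to 173 TPM with CDCA and 131 to 169 TPM with DMSO. Of 18 tested transcription factors of intestinal identity 2 rose, a share near the 12.8% of all rows that rose. They were Hnf4g by 0.85 and Gata6 by 0.50 (adjusted p = 0.00597 and 0.0102, the second 0.0523 without CDCA replicate 1). Gata4 had 0.25 (adjusted p = 0.0828), and 5 members of the list rose without CDCA replicate 3. The count depended on the scaling, with 7 higher under median-ratio scaling, and 2 higher and 2 lower with the mitochondrial and rRNA rows left out.

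**Figure D5:**
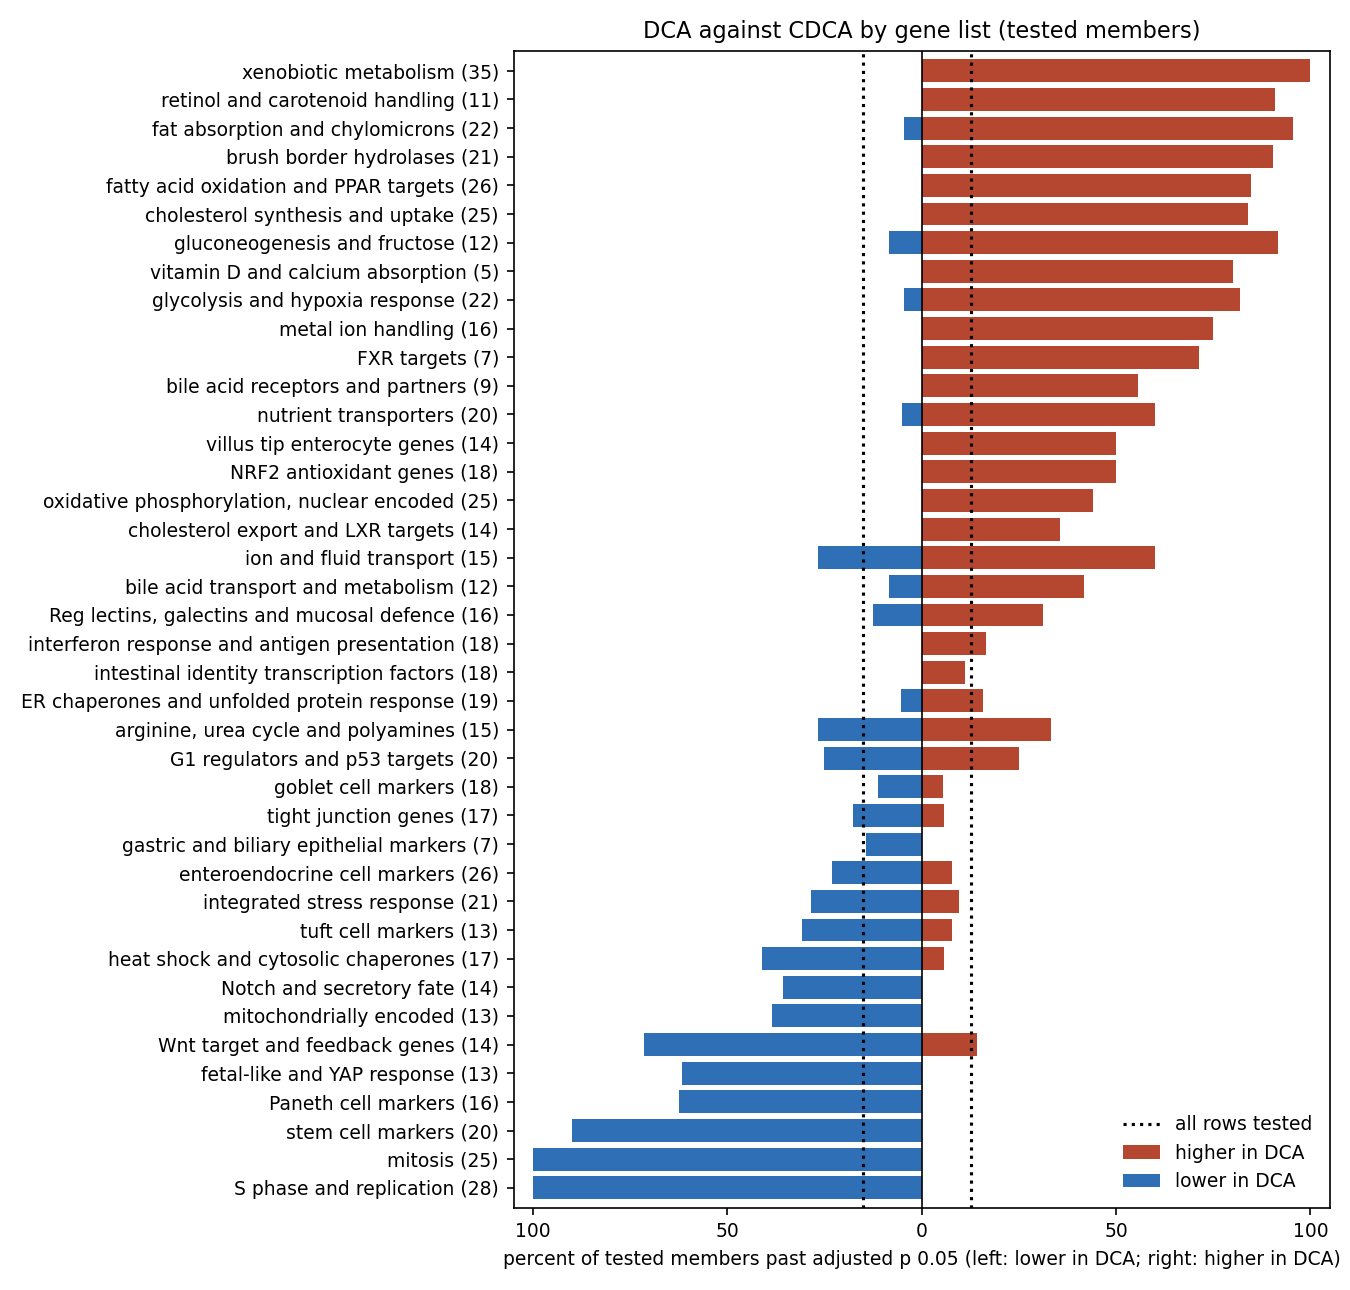
Percent of the tested members of each gene list (number in brackets) past an adjusted p of 0.05, higher with DCA to the right and lower with DCA to the left, with dotted lines at the shares over all rows tested (12.8% higher and 15.0% lower). S phase, mitosis and stem cell lists reach furthest to the left and xenobiotic, fat absorption, retinol, gluconeogenesis and brush border lists furthest to the right. Goblet, tight junction and identity factor lists stay near or inside the dotted lines.

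Most rows did not pass the test between the acids. Not passing does not show that the acids were alike, since their values did not overlap in 48.4% of all rows tested. Of the 8630 rows that did not pass, 5482 had a 95% interval that lay within 0.5 log2 units of 0, and for these a larger difference lies outside the interval. Among named genes Gcg, Gip, Chga, Muc2, Sdc1 and Cyp24a1 belonged to them, and Fgf15 did not. For the rows that did not pass and are not among the 5482, a difference beyond 0.5 log2 units is undecided.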

How the data were processed

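Poly(A) RNA from WT duodenal organoids was sequenced as strand-marked, paired-end libraries, per the labels' protocols. The authors deposited 1 table of values per library that were read as TPM from their size and totals, and the submitters' processing notes name Salmon 1.8.0 and the build GRCm39. No annotation, strand setting or way of summing to genes is named in those notes or the labels. Depth cannot be read from TPM, so no counting error is given.

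The members of the comparison and all 43 gene lists (802 genes, 678 tested, 18 matched under another symbol) were chosen with earlier results of these data known. Rows that reached 1 TPM in 3 or more of the 12 libraries were kept, and log2(TPM + 1), which understates changes of low genes, was fitted in R 4.3.3 with limma 3.58.1 as 4 group means over 12 libraries, with trend and robust moderation. Adjusted p-values are Benjamini-Hochberg values over all rows tested, with a threshold of 0.05. Fold changes are DCA minus CDCA, and intervals are 95% intervals of the fit. The fit was run on simulated data with independent noise for each gene. Those data held no displaced library such as CDCA replicate 3, so they do not show how the fit behaves with one. Library labels gave the groups.

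Named genes were the 15 largest called differences in each direction with a mean log2(TPM + 1) of at least 1 and no overlap between DCA and CDCA, leaving out predicted, clone and pseudogene names. Up to 4 members of each list with the smallest p and a set of bile acid, stem and cell type genes were also named. Lists are described by counts and medians, with no test of a list. The mitochondrial share, over 13 rows, had an exact permutation test. Alternatives were other pseudocounts, filters, scalings, weights, moderation, a fit of 6 libraries, a replicate block and leaving out each library. Promoters came from RefSeq for GRCm38.p6 and were searched in Python 3.11.15, and figures were drawn with matplotlib 3.10.9. The cholic acid libraries entered the fit but are used otherwise only as a distance from CDCA replicate 3. Some genes that the naming rule admits are not reported here.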

Additional observations from a re-analysis of the deposited data

How the results depend on the processing

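The count of rows that differed (3322) stayed within 1.5 times under every alternative except array weights, which gave 7080 (3338 higher and 3742 lower with DCA, 373 and 252 by at least 1 log2 unit), and 4 of the fits that left out 1 library. Leaving out each library in turn gave 2022 to 3943 rows, 945 to 1666 higher and 919 to 2277 lower, with 195 to 350 higher and 85 to 315 lower by at least 1 log2 unit. The lowest count was without CDCA replicate 2 and the highest without CDCA replicate 3. With the mitochondrial and rRNA rows left out, 3313 rows were lower, 236 of them by at least 1 log2 unit, and with a pseudocount of 0.1 331 were lower by that much. The direction of 2 genes that did not pass reversed. Cyp24a1 had -0.0145 without the mitochondrial and rRNA rows, and -0.00309 to 0.135 over the fits that left out 1 library, the lowest without DCA replicate 3. Muc2 had 0.0368 with median-ratio scaling and 0.12 with array weights, and -0.0924 to 0.061 over the fits that left out 1 library, being above 0 without DCA replicate 3 (0.0393) or CDCA replicate 3. The cause was not tested. The replicate block gave 2910 rows, 1439 higher and 1471 lower. Same-numbered DCA and CDCA libraries had correlations of -0.05, -0.06 and -0.15 in their deviations from the group means. No DCA or CDCA library correlated best with its own number. With 3 libraries a group, these correlations cannot show whether equal numbers share a culture or mouse, and the labels do not say. With 3 libraries a group and no depth, differences of low genes are the least certain.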
